A study of Drosophila melanogaster with 3 samples.

Results

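Deep intronic peaks are the binding sites of CG1529-GFP whose summit, the base of highest signal, lay more than 5000 bp from every transcription start site (TSS), inside a gene and outside every annotated exon. They numbered 497 of the 3905 distinct peaks in the joint list of reproducible peaks, or 12.7% (exact 95% interval 11.7 to 13.8). They lay in 268 host genes, the host being the longest gene that holds the summit. The rule chose members by position; signal entered only through the making of the joint list and the choice of 1 row per interval. It selected by distance from a TSS and not from an exon: the nearest exon was 24 to 30226 bp away, with a median of 4078 bp, and 75 of the summits were within 1000 bp of one.

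The data are ChIP-seq peak lists of 3 libraries, biological replicates 1, 2 and 3, which form 1 group with no second condition. All came from whole embryos of Drosophila melanogaster, males and females pooled, aged 0 to 14 h, of a transgenic strain that stably expresses CG1529 with green fluorescent protein at its C terminus. The antibody label names CG1529 as the target, whereas the description of each sample says input control; because peaks were called on these libraries against another alignment, they were taken as ChIP libraries. The strain is described as an insertion of the tagged gene, so the tagged protein and not the untagged one was mapped, and many tissues and ages are pooled, so binding in few cells and weak binding in many cannot be told apart. Sonication gave chromatin fragments of 200 to 800 bp, per the labels. Each library's list holds 30000 rows, its read depth is unknown from peak lists, and the 3921 peaks of highest signal in each, the row count of the joint list, are called its strongest peaks.

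CG1529 is predicted to encode a zinc finger protein, a class that contacts DNA through short folded repeats. Introns of long developmental genes in flies often hold enhancers, stretches of DNA that set where and when a promoter is active, and these can lie far from the start site that they act on. A ChIP-seq peak marks where fragments bound to the tagged protein were enriched; it says neither that the contact was direct nor which gene, if any, it acts on.

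The 101 bases centred on a summit show the base composition that the values further on describe. The windows printed are 7 of the highest by signal among deep intronic peaks that overlapped a strongest peak in all 3 libraries. They are shown on the forward strand of dm6, and capitals mark runs of 6 or more bases that are all A or T. The first 5 have 20 to 45 of their bases in such runs, and the last 2, from Star (S) and Raf, show that others have fewer.

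Gug, chr3L:8458261-8458361: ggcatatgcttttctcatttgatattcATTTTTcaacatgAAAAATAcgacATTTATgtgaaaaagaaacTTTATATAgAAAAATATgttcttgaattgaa
Hr4, first summit, chrX:1947701-1947801: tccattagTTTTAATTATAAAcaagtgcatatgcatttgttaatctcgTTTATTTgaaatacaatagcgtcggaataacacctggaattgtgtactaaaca
JIL-1, chr3L:11084711-11084811: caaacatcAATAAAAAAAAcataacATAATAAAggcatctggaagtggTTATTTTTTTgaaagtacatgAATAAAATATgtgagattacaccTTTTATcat
tara, chr3R:16236928-16237028: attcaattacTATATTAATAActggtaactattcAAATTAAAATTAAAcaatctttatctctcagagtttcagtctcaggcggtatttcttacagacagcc
N, chrX:3162504-3162604: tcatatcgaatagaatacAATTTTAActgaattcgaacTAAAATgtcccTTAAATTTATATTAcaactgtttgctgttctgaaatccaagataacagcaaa
S, chr2L:1072350-1072450: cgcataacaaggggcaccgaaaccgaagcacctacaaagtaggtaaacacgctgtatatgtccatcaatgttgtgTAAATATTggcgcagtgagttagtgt
Raf, chrX:2300642-2300742: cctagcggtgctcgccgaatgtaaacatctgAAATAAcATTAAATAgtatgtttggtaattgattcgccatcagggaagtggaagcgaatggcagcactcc

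The window at JIL-1 was 24.8% G+C, with 45 of its 101 bases in capitals and a longest A/T run of 11, and that at Gug was 23.8% with 35. The windows at S and Raf were both 44.6% G+C, with 8 and 14 bases in capitals. The strongest sites thus differed widely in composition among themselves.

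Deep introns held peaks at a lower density than introns nearer a TSS. There were 19.4 peaks per megabase (Mb) of deep intron (exact Poisson 95% interval 17.8 to 21.2, counting error only), against 46.5 per Mb (43.8 to 49.3) in introns 500 to 5000 bp from a TSS, called near introns here, and 89.7 per Mb within 500 bp of a TSS, called promoters. Among each library's strongest peaks the density in deep introns was 20.1, 17.2 and 17.9 per Mb in replicates 1, 2 and 3, or 18.4 ± 1.51 (SD, n = 3), and in near introns 47.4, 44.7 and 46.1. In every library the density was lower in deep than in near introns. The ratio was 0.423, 0.385 and 0.388, which is −1.33 ± 0.0762 on the log2 scale (SD, n = 3). The exact two-sided sign-flip permutation test gave p = 0.25, the smallest that 3 libraries allow, so no comparison over libraries here can pass 0.05.

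Intergenic DNA was the class most like deep introns in density. It held 20.7, 15.2 and 17.0 strongest peaks per Mb in the 3 libraries, and the log2 ratio of deep introns to it was 0.069 ± 0.111 (SD, n = 3, exact p = 0.5), with replicate 1 below 0 and the others above. That difference is smaller than the spread between libraries. The 2 classes cover unlike distances, since of the 582 intergenic summits in the joint list only 176 lay more than 5000 bp from a TSS. Their densities were not compared at like distances. Promoters exceeded deep introns by 5.09 ± 0.855 times (SD, n = 3), and in exons the density was 3.08, 3.49 and 3.19 per Mb, below deep introns in every library.

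**Figure D1:**
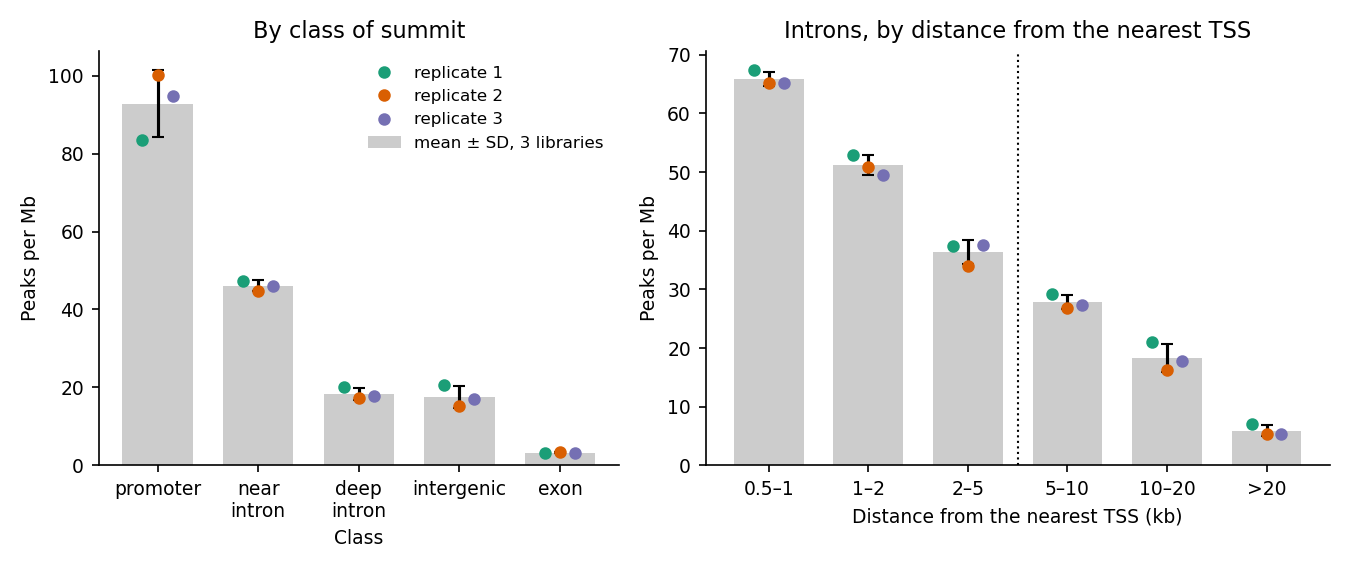
Strongest peaks per Mb in each class of DNA (left) and in introns by distance from the nearest TSS in kb (right). Bars are the mean of 3 libraries with the SD, points are the libraries, and the dotted line is the 5000 bp limit; the density falls across it from 36.4 to 27.8 and on to 5.92 beyond 20 kb.

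Within introns the density fell with distance without a step at 5000 bp. It was 65.9 ± 1.20 per Mb at 500 to 1000 bp from a TSS, 51.1 ± 1.70 at 1000 to 2000 bp and 36.4 ± 1.99 at 2000 to 5000 bp (SD, n = 3 libraries throughout). Beyond the limit it was 27.8 ± 1.25 at 5000 to 10000 bp, 18.3 ± 2.41 at 10000 to 20000 bp and 5.92 ± 0.980 beyond 20000 bp. Each library followed that order. In the joint list the last 3 ranges held 297, 151 and 49 deep intronic peaks. Weaker peaks of the pooled list, those below the joint list, fell as well, from 328 per Mb at 500 to 1000 bp to 247 at 5000 to 10000 bp and 83.6 beyond 20000 bp.

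Repeats were more common in the most distant sequence. Bases that the reference marks as repeats (soft-masked) made up 17.8 to 19.4% of introns up to 20000 bp from a TSS and 28.9% beyond. Counted over unmasked bases alone, the joint list held 65.6 peaks per Mb at 500 to 1000 bp, 28.6 at 5000 to 10000 bp and 6.43 beyond 20000 bp, and the log2 ratio of deep to near introns over libraries was −1.29 ± 0.088 (SD, n = 3). The fall is about as large in unmasked sequence.

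At the limit itself, the members just inside were a peak in Alh, a gene for a PHD finger protein, 5003 bp from a TSS (signal 194, absent from the list of replicate 1 and ranked 2697 and 3129 in replicates 2 and 3) and one in nuf, a Rab11 effector gene, at 5005 bp (signal 263, ranked 2231, 1384 and 1582). The intronic peaks just outside were in CadN, the N-cadherin gene, at 4981 bp (signal 184) and in cv-c at 4975 bp (signal 233). The values on either side of the limit overlap.

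First introns held a larger share of the deep intronic peaks than of the deep intronic bases. The bases are those of all genes with deep intron, and the hosts alone were not measured. Introns were counted from the 5′ end of the gene after all its transcripts were merged. First introns held 169 of the 497 peaks (34.0%) on 17.4% of the deep intronic bases, second introns 124 (24.9%) on 20.9%, and all later ones 204 (41.0%) on 61.7%. Per Mb, the libraries had 37.8, 36.0 and 36.4 strongest peaks in first introns, 25.6, 21.1 and 22.8 in second introns, and 13.2, 10.6 and 11.0 in later ones. The 3 groups of values do not overlap.

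The order was the same among summits at like distances from a TSS. Between 5000 and 10000 bp the means were 41.8 ± 1.83 per Mb in first introns, 33.7 ± 1.14 in second and 18.7 ± 1.89 in later ones (SD, n = 3). Beyond 10000 bp they were 30.1 ± 2.75, 15.2 ± 3.50 and 8.01 ± 1.24. Each library followed this order at both distances.

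**Figure D2:**
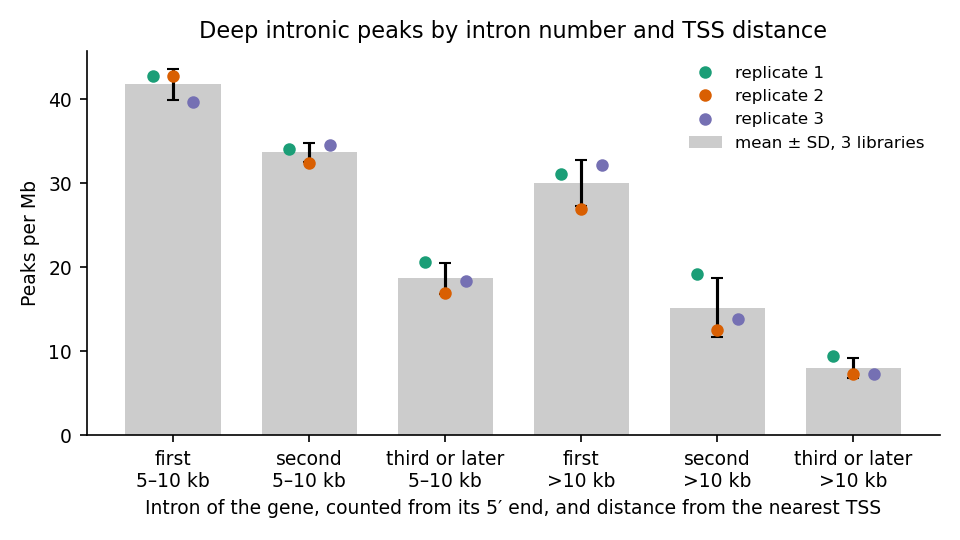
Strongest peaks per Mb of deep intron by the number of the intron and the distance of the summit from the nearest TSS. Bars are the mean of 3 libraries with the SD and points are the libraries; first introns are the highest in each library at both distances, 41.8 and 30.1 on average.

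Deep intronic peaks were somewhat weaker than those in near introns. The signal, the authors' own value for each peak, had a median of 236 over the 497 (quartiles 190 and 328, range 157 to 1720.1), against 251 in near introns, 274 at promoters and 234 in intergenic DNA. Within the libraries the median rank of deep intronic peaks lay 109, 160.5 and 231.5 places below that of near introns, or 167 ± 61.5 (SD, n = 3, exact permutation p = 0.25). They made up 8.93, 7.53 and 7.53% of the 784 highest of each library's strongest peaks and 15.2, 12.1 and 12.2% of the 784 lowest. In every library the class was thus more frequent at the weak end. Among the 3921 peaks of lowest signal in each library's full list, the share was 21.8, 18.9 and 19.0%, close to the 19.1% of all bases that are deep intron.

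Support by the strongest peaks of the libraries was close to that of the whole list. With an overlap of at least 1 bp, 309 of the 497 (62.2%, exact interval 57.7 to 66.5) had a strongest peak in all 3 libraries, against a background of 64.4% for all joint peaks; 130 had one in 2 libraries, 52 in 1 and 6 in none. With an overlap of at least 50% of each peak the number was 215 (43.3%), against 45.5% of all joint peaks. With summits within 100 bp it was 264 (53.1%), against 56.9%. None of these 3 shares stands above the background. Support followed signal: in 5 groups of 781 joint peaks, from the highest signal to the lowest, 98.1, 96.3, 84.3, 42.6 and 7.69% of the deep intronic peaks were matched this way, by 1 bp, in every library. The joint list was made from these libraries, so some overlap is built in. In the full lists of the libraries, 491 of the 497 (98.8%) were found in all 3, a higher share than the 3710 of 3905 for all joint peaks.

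The strongest deep intronic peaks included sites in genes for nuclear receptors, corepressors and signalling components. The highest was in the fourth intron of Hr3, a nuclear receptor gene that the steroid hormone ecdysone induces, at 2R:10219878-10220289, 7899 bp from a TSS. Its signal was 1720.1, with ranks 22, 35 and 36 in the 3 libraries. A peak of signal 1544.6 lay in the first intron of sbb (scribbler), which encodes a corepressor, at 2R:18336887-18337348, 20109 bp from its TSS, with ranks 64, 23 and 33. Both were among the strongest 100 peaks of every library.

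Gug, which encodes the corepressor Atrophin, had the third in order, of signal 1361, in the third of its introns (3L:8458153-8458521, ranks 59, 38 and 65). Hr4, another nuclear receptor gene, had one of 1277 in its first intron at X:1947583-1947905, 5811 bp from a TSS, with ranks 65, 46 and 76. The signal was 1099 in JIL-1, a histone H3 kinase gene (3L:11084604-11084941, ranks 158, 72 and 96). These 3 peaks lay in the first 158 of every library, so their places differed little between libraries.

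Among the sites next in order, Star (S), needed to export an EGF receptor ligand, held a peak of 962 that ranked 297, 85 and 130, and Raf, the kinase of that pathway, one of 891 that ranked 150, 196 and 222. The Wnt receptor gene fz had a peak of 823 at 3L:14303915-14304205, 22202 bp from any TSS, with ranks 254, 152 and 231. The receptor gene N (Notch) had one of 680 at X:3162396-3162687 that ranked 227, 863 and 284, so replicate 2 placed it far lower than the other libraries did. Of the rest of the 20 strongest, those in CG32486, tara, gukh, sbb, CG6959, crp and Hr4, had signals from 683 to 942. All 20 lay in 15 host genes, 12 in the first intron, and for 14 the nearest TSS was one of the host's own.

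That the nearest TSS is the host's own was less common over all members. It held for 302 of the 497 (60.8%, exact interval 56.3 to 65.1), and for the others a gene that overlaps or adjoins the host starts nearer. The summit in CG32486 lay 5708 bp from a start of CG16753, for instance, and that in N 10586 bp from one of CG18508. In 27 cases the summit was inside more than 1 gene.

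The hosts were long genes, and while most held 1 peak, most peaks shared their host with others. The hosts had a median length of 38.0 kb (quartiles 24.1 and 68.5, range 8184 to 394149 bp), and 260 of the 268 were protein-coding. A total of 1788 of the 18164 annotated genes have any deep intronic base, and their median length was 22.3 kb, so the rule itself selects long genes. Of these 1788, 286 (16.0%) held at least 1 deep intronic summit when every gene that contains the summit counts, and 128 (7.16%) held 2 or more. By the longest host, 146 genes had 1 peak, 65 had 2, 27 had 3, 19 had 4 and 11 had 5 or more. The 122 genes with 2 or more held 351 of the 497 peaks (70.6%). Some of these peaks overlap one another: with overlapping intervals merged there were 480 peaks, and 117 of the 268 hosts held 2 or more.

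Genes with more deep intron more often held a peak, but held fewer per Mb. None of the 413 genes with under 1000 bp of deep intron had one, which allows a share of up to 0.889% (exact interval). The share was 9.05% with 1000 to 5000 bp, 19.3% with 5000 to 10000, 21.3% with 10000 to 20000, 31.7% with 20000 to 40000 and 43.0% above that. By strongest peaks of the libraries, the last 5 shares were 8.39 ± 0.221, 18.1 ± 0.774, 22.3 ± 1.05, 31.8 ± 4.05 and 40.1 ± 3.07% (SD, n = 3). Over the same 5 groups the summits per Mb fell from 43.1 to 38.5, 26.3, 23.2 and 11.1. Across the 1788 genes, Spearman's correlation of deep intronic length with the number of peaks was 0.356. It is a description, since overlapping genes share summits and more deep intron gives more room for peaks.

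**Figure D3:**
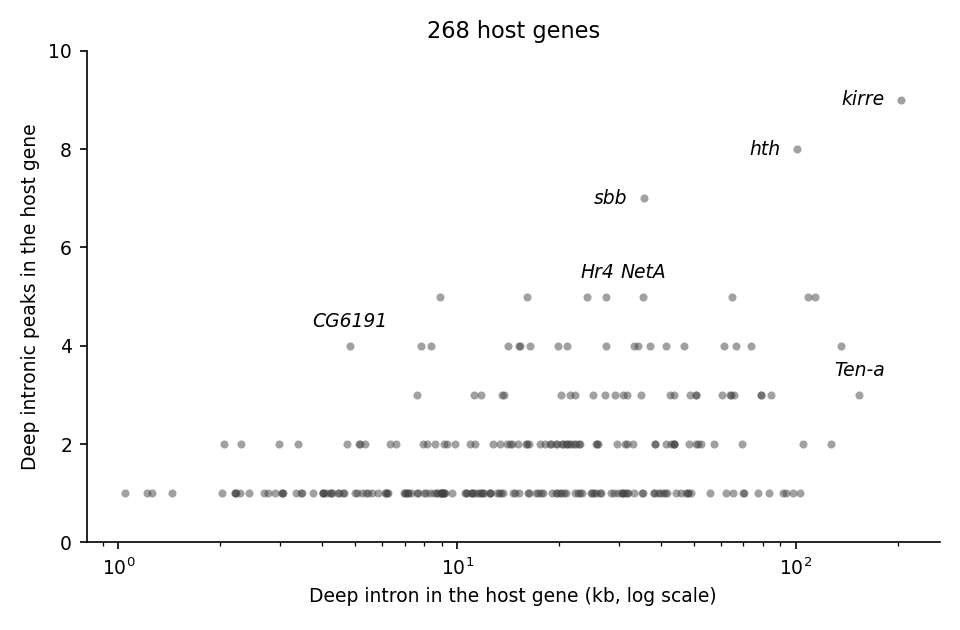
Each of the 268 host genes by its length of deep intron (kb, log scale) and its number of deep intronic peaks. Counts reach 9 in kirre, which has 204 kb of deep intron, but CG6191 holds 4 peaks in 4.82 kb, and many hosts of over 50 kb hold 1.

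Several of the longest genes held no peak. Of the 20 genes with the most deep intron, from 113 kb up, 5 (25%) held one, and of the first 50, 20 (40%), above the 16.0% of all genes with deep intron, though the 20 held 4.14 summits per Mb. Myo81F, an unconventional myosin gene with 1753 kb of deep intron, held 0 in the joint list and 0 strongest peaks in each library, and so did Pzl (618 kb), lovit (390 kb), DIP-lambda (344 kb) and CG17684 (329 kb). Soft-masked bases made up 33.8 to 46.6% of the deep introns of these 5 genes, against 21.9% of all deep intron. Over all genes with deep intron the median masked share was 18.6% in the 286 with a summit and 16.3% in the 1502 without. The RNA-binding protein gene bru3, with 202 kb and 20.7% masked, also held 0. With the 6 genes longer than 300 kb left out, deep introns held 22.2 peaks per Mb in place of 19.4, and the log2 ratio to near introns over libraries was −1.14 in place of −1.33.

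The host with the most peaks was kirre, an immunoglobulin domain gene of muscle founder cells that acts in myoblast fusion, which is also the longest host (X:2740384-3134532, 394 kb). It held 9 peaks with signals from 161 to 297, of which 6 overlapped a strongest peak in all 3 libraries. Its deep introns held 12, 8 and 7 strongest peaks in replicates 1, 2 and 3. Of the 9 summits, 6 lay in the ninth intron. Its highest ranked 1483, 2247 and 1576, far below the single sites named above, so kirre stands out by number and not by strength.

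In hth, which encodes a homeodomain cofactor of Hox proteins, 8 peaks were spread over 108 kb of a 132 kb gene (3R:10507561-10639568), and the libraries had 6, 7 and 7. It also held the 3 peaks farthest from any TSS, at 49844, 47697 and 47194 bp, with signals of 158, 171 and 191, and their places in the joint list by signal were 3881, 3451 and 2946. The other distant ones were in mamo, a zinc finger gene, at 42331 bp (signal 381, ranks 723, 1459 and 1368) and in CG43759 at 41356 bp (signal 214). By contrast the 7 peaks of sbb lay within 11.1 kb of a 79.1 kb gene, all in its first intron, and all 7 were in all 3 libraries by an overlap of 1 bp. A pair of them overlap the same library peaks.

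Hr4 held 5 peaks (signals 174 to 1277), and the libraries had 5 each. The other genes with 5 were tara, NetA, which encodes a netrin guidance cue, lncRNA:CR44357, SKIP, cic, which encodes an HMG-box repressor, Mnt, which encodes a Myc antagonist, and jing. Their library counts ranged from 3 to 7. The noncoding host lncRNA:CR44357, 239 kb long, had 6, 3 and 6, and Ten-a, a teneurin gene and the other of the 3 longest hosts, held 3 peaks in the joint list. Among hosts with 4 or more peaks the shortest span was in CG6191, where 4 peaks lay within 2898 bp and each library had 4; it was singled out after its values were seen. Of all 497 peaks, 251 (50.5%) had another joint peak within 5000 bp, a share close to the 52.9% of all joint peaks. Deep introns held fewer joint peaks per Mb than all bases together, 19.4 against 29.2. Whether their peaks cluster more than that density gives was not tested.

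**Figure D4:**
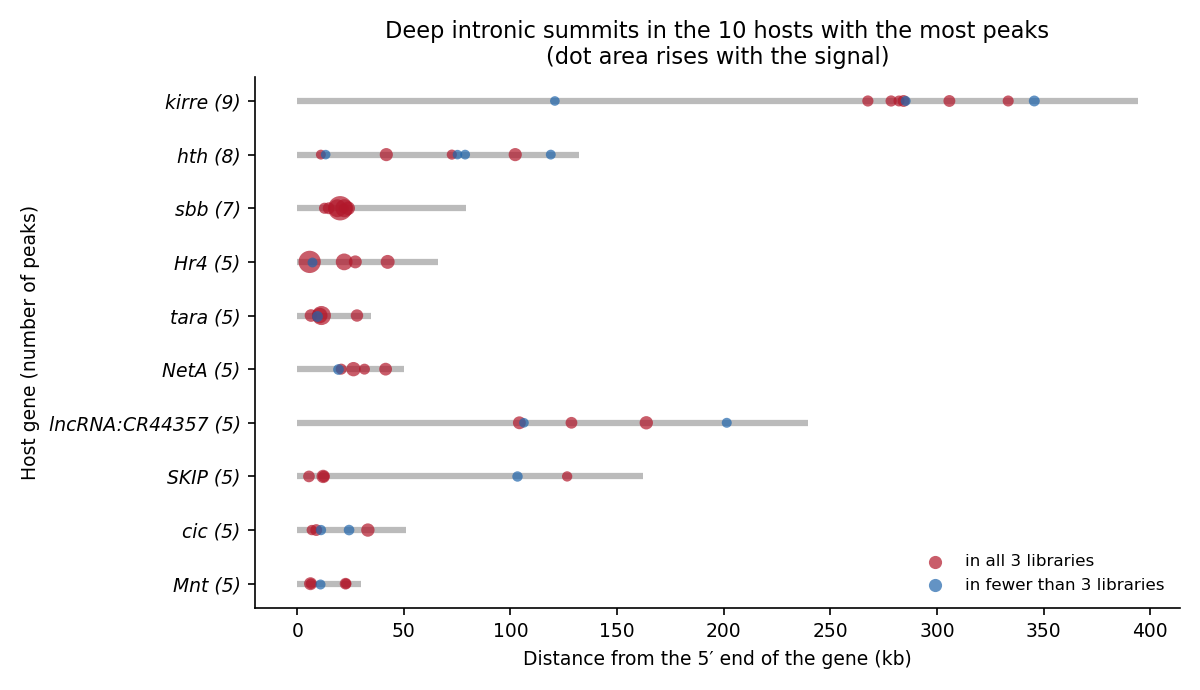
Deep intronic summits along the 10 hosts with the most peaks, as distance in kb from the 5′ end of each gene (grey line, its full length). Dot area rises with the signal and colour shows whether a strongest peak of all 3 libraries overlapped; the 7 summits of sbb lie within 11.1 kb, while the 8 of hth span 108 kb.

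Among gene groups, genes of the ecdysone response and of signalling pathways held a deep intronic peak more often than genes with deep intron in general. Of 17 nuclear receptor and ecdysone response genes with deep intron, 8 (47.1%) held one, as did 16 of 36 signalling genes (44.4%), against 16.0% of all 1788. Per Mb of their deep introns the libraries had 67.3 ± 5.07 and 61.9 ± 7.20 strongest summits (SD, n = 3), against 18.6 ± 1.57 for all. Counts this small describe these lists and were given no test.

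The ecdysone group comprised Hr3 and Hr4, with the values above, and 6 others. Eip75B, an early gene for a nuclear receptor, held 4 peaks, the highest of signal 535 (ranks 473, 581 and 576), and E23, which encodes a transporter, 3 with a highest of 525. Eip74EF, an ETS factor gene, held 2 (506), tai, a coactivator gene, 4 (434), and ftz-f1, a nuclear receptor gene, 2 (211). The ecdysone receptor gene EcR itself held 1 of signal 291, which ranked 2221, 1248 and 1442. In each library alone the share of genes in this group with a strongest summit was also 47.1%. They were the same 8 genes in every library.

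The signalling group was led by fz (4 peaks) and N (2), described above, then dpp, the BMP ligand gene, with 1 of signal 591 (ranks 312, 563 and 667), and Dad, the inhibitory Smad gene, with 3. The highest in Dad, of signal 538, ranked 748 and 409 in replicates 1 and 3 and was absent from the list of replicate 2. The other 12, from vn, an EGF receptor ligand gene (461), to ptc, the Hedgehog receptor gene (164), had lower signals, so the group spans much of the range of the class.

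RNA-binding protein genes held peaks often but sparsely: 8 of 22 (36.4%) had one, led by how (signal 389), yet the density was 8.62 per Mb in each library, below that of all genes. They had much deep intron, with a median of 30.3 kb against 5.45 kb for all 1788 genes. Of all genes with 20000 to 40000 bp of it, 31.7% held a peak, and the part of length in the share of this group was not tested. Among axon guidance and adhesion genes 15 of 74 (20.3%) had one, led by ed (539) and fra (518), and among regulators of small GTPases 5 of 19 (26.3%), led by cv-c (298). By strongest peaks the GTPase share was lower, 15.8, 15.8 and 21.1% in the 3 libraries, against 15.6 ± 0.931% for all genes with deep intron (SD, n = 3). Homeodomain genes were near the background by share, 6 of 36 (16.7%), but above it by density, with 30.2 ± 4.65 summits per Mb over the libraries (SD, n = 3). Of their 18 joint summits 8 were in hth, and the others were in Lim1, ct, cad, Antp and pb. Of BTB factor genes 2 of 11 (18.2%) held one, bab2 and bab1.

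Ion channel and muscle genes were at the low end by share. Of 45 ion channel and receptor genes with deep intron 1 held a peak (2.22%, exact interval 0.0562 to 11.8), Shal, a potassium channel gene, with a signal of 290, and the libraries had 2.27 summits per Mb each. Of 26 muscle and cytoskeleton genes 1 held a peak (3.85%, exact interval 0.0973 to 19.6), Zasp52, with a signal of 199. That interval includes the 16.0% of all genes with deep intron. In the libraries the muscle share was 7.69, 3.85 and 7.69%, at 9.56 ± 3.31 summits per Mb (SD, n = 3). The median length of deep intron was 17.6 kb for the ion channel genes and 6.22 kb for the muscle genes, against 15.6 kb for the ecdysone and 10.4 kb for the signalling genes; the part of length in these shares was not tested.

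Summits in deep introns lay in A/T-rich DNA between flanks richer in G+C. Over the 497 the 101 bases at the summit were 33.4% G+C, against 44.2% in windows centred 300 bp to either side and 40.5% in 244040 windows that tile all deep introns. In the libraries the summits had 33.3, 34.2 and 33.7% and the flanks 44.8, 43.5 and 43.9%, a difference of −10.4 ± 1.14 points (SD, n = 3, exact permutation p = 0.25), negative in every library. Single peaks varied, as the printed windows show: G+C at the summit ran from 15.8 to 64.4%, and 409 of the 497 (82.3%) were below their own flanks. The dip was not particular to the class, since near introns had 33.5%, promoters 33.9% and intergenic summits 33.8%, and over libraries deep minus near introns was −0.149 ± 0.233 points (SD, n = 3).

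**Figure D5:**
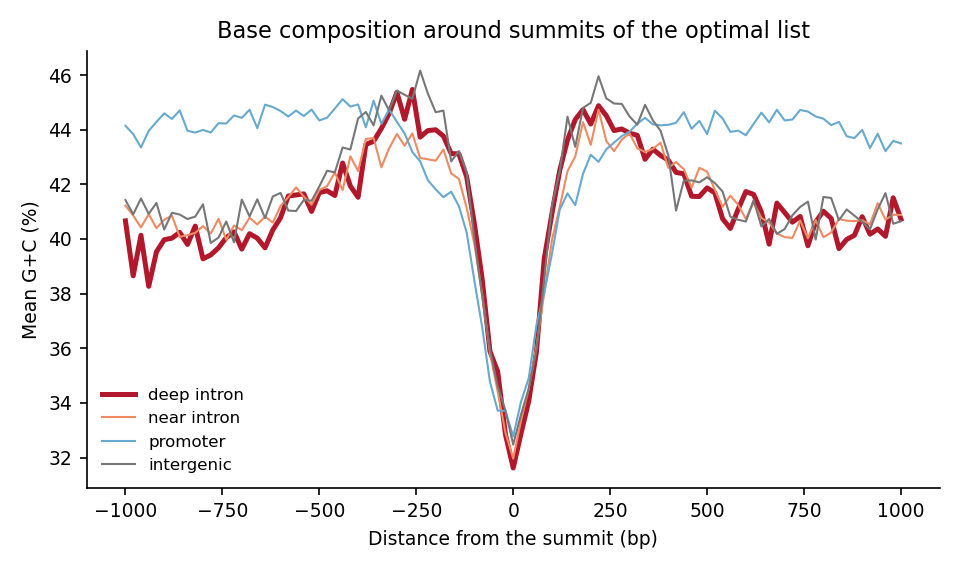
Mean G+C in percent at distances from −1000 to 1000 bp around the summits of the joint list, for 4 classes. All 4 dip at the summit; in deep introns (thick line) the value is 31.6% at 0, 44.5% at 240 bp and 40.7% at 1000 bp.

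A smaller rise lay on either side of the dip. In deep introns G+C was 43.7% at 240 bp before the summit and 44.5% at 240 bp after, above the 40.1% reached 960 bp away on either side. Promoters had 42.8 and 43.3% at those positions and 43.3 and 43.2% at 960 bp, without such a rise. Near introns had 43.0 and 43.6% at 240 bp and 40.4 and 40.7% at 960 bp. Intergenic DNA had 46.2 and 45.1%, then 41.5 and 41.7%, so the rise was not particular to deep introns. Long runs of A/T were also more frequent at the summits: 75 of the 497 windows (15.1%) held a run of 15 or more, against 6.14% of flanks and 8.76% of tiles. At summits in near introns, promoters and intergenic DNA the share was 16.8, 21.1 and 14.9%.

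Short A/T-rich words were more frequent at the summits than beside them. All motifs were searched as exact letters on both strands. The word TATAAA was in 23.1% of summit windows (exact interval 19.5 to 27.1), 10.1% of flanks and 12.5% of tiles, with 21.6, 20.9 and 24.0% at the summits of the 3 libraries. AATATT, added after the data were seen, was in 22.3%, 5.73% and 9.31%, and ATTTAAAA in 5.03%, 1.11% and 2.68%. These words are made of A and T alone and can overlap one another, and what composition alone would give was not tested.

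Some words that are less A/T-rich were also more frequent at the summits than in flanks and tiles. The forkhead-like word GTAAACA was in 6.04% of deep intronic summits, 2.01% of flanks and 1.97% of tiles, with a summit minus flank difference of 2.60 ± 0.252 points (SD, n = 3 libraries, exact permutation p = 0.25). The GATA word AGATAA was in 10.3%, 6.14% and 5.59%, and CACTG in 21.1%, 15.3% and 14.9%. In near introns the 3 words were in 6.32, 9.16 and 21.2% of summits, so they were about as frequent there. At promoters GTAAACA was in 3.50%. The summit minus flank difference for CACTG depended on the width of the window. Its mean over the libraries was 4.73 points with 101 bases and 18.5 points with all bases within 100 bp. The latter was the largest of the 20 motifs at that width, where AATATT was not measured. TATAAA had 12.1 and 16.6 points at these widths. The E-box CAGCTG and the GAGA factor word GAGAG were less frequent than in flanks, with 1.81% at summits against 4.73% in flanks and 3.63% of tiles, and 11.3% against 15.3% and 11.5%, so GAGAG was below its flanks and close to the tiles. CAGGTAG, bound by Zelda, was in 0 of the 497 windows, which allows up to 0.739%, above the 0.402% of flanks and 0.406% of tiles. A match is a description of the letters and not a binding site.

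The chromosome arms differed in the density of deep intronic peaks. It was 24.2 per Mb on 2L, 22.1 on X, 21.5 on 3L, 16.8 on 3R and 15.3 on 2R in the joint list, and each library had fewer on 3R and on 2R than on 2L and 3L. On chromosome 4, with 0.178 Mb of deep intron, there were 0, which allows up to 20.7 per Mb (exact Poisson interval); that limit is below the values of 2L, X and 3L and above those of 3R and 2R. Its near introns held 0 as well. The order was not that of near introns, where 2R had 49.1 per Mb and 2L 40.3. Of the long genes without a peak named above, Myo81F and Pzl are on 3R, DIP-lambda and CG17684 on 2R, and lovit and bru3 on 3L. Their part in the order was not tested.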

How the data were processed

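ChIP-seq peak lists of 3 libraries in dm6 coordinates were used: 1 relaxed list per library, 1 from the pooled libraries and 1 joint list cut by the irreproducible discovery rate (IDR), per the file listings. All libraries share 1 control alignment. For the aligner, the peak caller, the normalisation and the IDR cutoff, the sources used here give nothing. Peak signal is the authors' value, as deposited, and served only to rank or describe peaks inside a single list. The deposited −log10 q-value has a ceiling of 3.87, which 462 of the 497 peaks share, and ranked nothing. Summit offsets were read as deposited; 352 members have a width of 436 bp and their summit at its middle. The number of columns without a library was 0.

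The 3921 joint rows hold 3905 distinct intervals. Genes, exons and TSSs came from Ensembl release 115 on 2L, 2R, 3L, 3R, 4 and X. Transposon exons counted as exons, which left 2 summits out, and transposons gave no genes or starts. Values over libraries are mean ± SD of labelled biological replicates. Differences were tested by an exact two-sided sign-flip permutation over the 3 libraries. Exact binomial and Poisson 95% intervals cover counting error only. Scripts were tested on simulated data. Python 3.11.15, numpy 2.4.6, pandas 2.3.3, scipy 1.17.1 and matplotlib 3.10.9 were used.

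The members, the 9 gene lists and the 20 motifs were chosen with earlier results of these data known. The text names the 20 strongest members that overlap a strongest peak in all 3 libraries, the 10 hosts with most peaks, the 3 longest hosts, the 5 members farthest from a TSS, up to 4 genes per list by signal, and 2 peaks on either side of 5000 bp. Other genes of the ecdysone, signalling and homeodomain lists, CG6191, jing, genes without a peak, intron number, soft-masked bases, A/T runs and AATATT were added after the data were seen. The sites of 1 host gene among these are not reported here.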

Additional observations from a re-analysis of the deposited data

How the results depend on the processing

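The threshold, the list and the annotation set the size of the class more than any other choice. With limits of 2500 and 10000 bp there were 845 and 200 peaks, or 21.6 and 5.12% of the joint list, at 24.0 and 13.0 per Mb. Protein-coding genes alone gave a share of 14.2%. The stronger 1952 peaks of the joint list gave 218 peaks, 11.2%, 8.52 per Mb and a median signal of 347, which the smaller list fixes in part. Leaving out genes longer than 300 kb, added after the data were seen, gave 22.2 per Mb. With 1960 and 7842 peaks per library the mean library share was 10.9 and 13.5%, and support in all 3 libraries 16.1 and 73.8%; with an overlap of 1 bp or summits within 100 bp support was 62.2 and 53.1%. G+C at the summits was 33.0% within 25 bp and 36.0% within 100 bp. The log2 ratio of deep introns to intergenic DNA was reversed, to −0.532, at a limit of 10000 bp, where the class loses its denser part by construction. The ratios to near introns (−1.74 to −1.14) and to promoters kept their sign under each alternative run, as did the G+C difference and all 40 motif values.

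Leaving out each replicate in turn gave library shares from 11.5 to 12.4%, log2 ratios to near introns from −1.37 to −1.30, to promoters from −2.47 to −2.23 and to intergenic DNA from 0.0156 to 0.126, G+C from 33.5 to 34.0% and its difference from −10.9 to −9.76 points. Support, then over 2 libraries, was 50.3 to 56.1%. No paired analysis was possible because the libraries form 1 group, so no replicate numbers are shared between groups; the contrasts of classes and of summits with flanks were taken within each library. With 3 libraries the smallest exact p is 0.25, and read depth, which limits weak peaks, is unknown.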
